A study of Mus musculus with 12 samples.

Results

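The 10 genes described here, Chka, Chkb, Pcyt1a, Pcyt2, Etnk2, Cept1, Pemt, Pisd, Pgs1, and Crls1, encode enzymes that build the phospholipids of cell membranes. They were taken by symbol, and all 10 were among the 22456 genes of the deposited expression matrix. Their symbols also marked 219 of 84592 skipped exon events in the table of fasted liver and 200 of 75694 in the table of refed liver, with 87 in both tables and 332 in either. An event is an exon that is included or skipped between the same neighboring exons, and each library has a count for both forms.

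Liver RNA came from 12 male mice of the BALB/cByJ background, aged 2 to 8 months and fed a chow diet, and each of the 4 groups held 3 of them. Livers of fasted Lpin1+/+ and Lpin1-/- mice were taken after 16 hours without food, and those of refed mice of both genotypes after the same fast and 5 hours of refeeding, so the feeding states also differ in the hour of sampling. Lpin1-/- mice (labelled FLD, for fatty liver dystrophy) carry the inherited fld mutation in all tissues, and the Lpin1+/+ mice (labelled WT) were their littermates. Lpin1 itself was at 21.96, 0.73, and 1.76 RPKM in the fasted Lpin1+/+ libraries and at 0.060, 0.057, and 0.037 in the fasted Lpin1-/- libraries. Refed values were 2.92, 0.78, and 2.76 in Lpin1+/+ and 0.006, 0.024, and 0.010 in Lpin1-/-, so no Lpin1-/- library reached any Lpin1+/+ library. By limma, Lpin1 itself still did not pass the threshold between genotypes in either feeding state. RPKM is a read count divided by transcript length and by library depth. Of the other lipins, Lpin2 fell with refeeding in Lpin1-/- liver (log2 fold change -1.62, limma adjusted p = 0.0272), and Lpin3 passed the threshold in no contrast.

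Lipin 1 is a phosphatidic acid phosphatase, and its product diacylglycerol is the lipid that receives the head group in the main routes to phosphatidylcholine and phosphatidylethanolamine. In these routes a kinase phosphorylates choline or ethanolamine, a cytidyltransferase turns the phosphate into CDP-choline or CDP-ethanolamine, and a transferase joins it to diacylglycerol. Liver has a further route to phosphatidylcholine, the methylation of phosphatidylethanolamine, and mitochondria make phosphatidylethanolamine from phosphatidylserine and cardiolipin from CDP-diacylglycerol.

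Some exons of annotated transcripts are shown here because results on splicing turn on them. Each is the reference sequence of GRCm38 read on the strand of the gene, with the target exon in capitals and 15 bases of each neighboring exon of a transcript annotated in GENCODE M21 in lower case. In Chka, on the plus strand, they are an exon of 60 nt (chr19:3871003-3871062) that is annotated in a single transcript of the nonsense-mediated decay class, a downstream coding exon of 54 nt that it can be joined to (chr19:3875735-3875788), and a coding exon of 114 nt (chr19:3884472-3884585). In the frame of that transcript the 60-nt exon holds a stop codon that begins at base 43.
Chka 60-nt exon: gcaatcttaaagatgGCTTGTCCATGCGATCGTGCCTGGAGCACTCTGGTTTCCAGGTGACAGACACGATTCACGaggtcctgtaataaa
Chka 54-nt exon: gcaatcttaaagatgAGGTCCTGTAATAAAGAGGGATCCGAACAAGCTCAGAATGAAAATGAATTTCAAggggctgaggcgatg
Chka 114-nt exon: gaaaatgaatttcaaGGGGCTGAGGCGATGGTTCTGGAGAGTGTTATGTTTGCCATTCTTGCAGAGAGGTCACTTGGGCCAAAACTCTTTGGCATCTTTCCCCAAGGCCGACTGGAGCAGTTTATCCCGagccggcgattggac

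In the other genes the exons shown are coding exons whose skipping was counted more often in Lpin1-/- than in Lpin1+/+ liver after a fast. They lie at chr15:89428411-89428544 on the minus strand (Chkb), chr11:120615291-120615452 on the minus strand (Pcyt2), chr1:133374527-133374610 on the plus strand (Etnk2), chr5:32740624-32740789 on the minus strand (Pisd), and chr11:118014574-118014722 on the plus strand (Pgs1). The Pcyt2 and Etnk2 exons have lengths that divide by 3. The Chkb and Pgs1 exons leave a remainder of 2 and the Pisd exon a remainder of 1, so that leaving them out shifts the reading frame.
Chkb 134-nt exon: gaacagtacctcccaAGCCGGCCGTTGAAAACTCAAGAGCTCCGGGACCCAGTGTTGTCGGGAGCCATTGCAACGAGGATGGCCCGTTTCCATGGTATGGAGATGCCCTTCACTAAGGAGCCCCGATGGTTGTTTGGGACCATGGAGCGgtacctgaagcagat
Pcyt2 162-nt exon: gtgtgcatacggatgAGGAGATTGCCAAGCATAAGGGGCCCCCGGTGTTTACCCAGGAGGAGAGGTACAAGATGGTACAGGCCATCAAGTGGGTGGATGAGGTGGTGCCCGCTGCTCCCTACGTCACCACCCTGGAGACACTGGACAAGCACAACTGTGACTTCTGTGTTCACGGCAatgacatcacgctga
Etnk2 84-nt exon: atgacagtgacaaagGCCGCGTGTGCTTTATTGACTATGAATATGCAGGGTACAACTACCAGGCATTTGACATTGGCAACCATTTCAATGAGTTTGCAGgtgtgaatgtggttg
Pisd 166-nt exon: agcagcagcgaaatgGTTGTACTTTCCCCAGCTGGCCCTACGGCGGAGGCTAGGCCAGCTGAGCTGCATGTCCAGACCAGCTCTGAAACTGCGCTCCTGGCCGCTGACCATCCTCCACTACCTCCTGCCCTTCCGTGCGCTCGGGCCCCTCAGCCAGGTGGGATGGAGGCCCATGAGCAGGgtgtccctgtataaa
Pgs1 149-nt exon: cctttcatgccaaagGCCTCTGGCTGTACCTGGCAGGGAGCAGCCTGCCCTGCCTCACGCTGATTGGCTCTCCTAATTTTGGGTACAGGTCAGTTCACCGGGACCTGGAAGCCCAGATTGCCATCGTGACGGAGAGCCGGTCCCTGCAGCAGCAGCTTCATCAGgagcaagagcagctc

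Relative depths of the libraries, read from the ratios of low RPKM values, ran from 0.866 to 1.157, and the mean correlation of a library with the others of its group ran from 0.933 to 0.984. The summed RPKM of 6 hepatocyte markers was 32430 to 72807 across the 12 libraries. In fasted liver 8 of 8 Kupffer cell and macrophage markers, 5 of 6 stellate cell markers, and 5 of 5 cholangiocyte markers had a positive log2 fold change of Lpin1-/- against Lpin1+/+ (by mean RPKM 4 of the 6 stellate cell markers were higher, with Reln at 2.12 against 2.31), with summed RPKM of 360 to 981 against 188 to 381, 194 to 285 against 65.9 to 154, and 24.9 to 451 against 32.1 to 45.8. In refed liver the 3 sums were 114 to 266 against 104 to 895, 156 to 197 against 71.4 to 199, and 19.2 to 27.8 against 31.6 to 103. Replicate 1 of fasted Lpin1-/- held the highest Kupffer cell and macrophage sum, 981, and the highest cholangiocyte sum, 451. Replicates 2 and 3 had cholangiocyte sums of 57.0 and 24.9. Skeletal muscle markers summed to 0.232 RPKM or less in every library. Of the genes in these lists, Clec4f alone passed the threshold in any contrast, with a fall on refeeding in Lpin1-/- liver (log2 fold change -1.28, limma adjusted p = 0.0235). The part of these other cells in the results that follow was not tested, and in whole liver fewer cells of a type and less RNA per cell cannot be told apart.

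Levels were compared as log2(RPKM + 1) with limma, over genes averaging 0.5 RPKM or more. The threshold throughout is a p of 0.05 after Benjamini-Hochberg adjustment over all genes, or all exon events, tested. On the RPKM scale, which allows for transcript length, the 10 genes spanned from Pemt, the highest on average, through Pcyt2, Etnk2, Chkb, Crls1, Cept1, Pisd, Chka, and Pcyt1a to Pgs1. In fasted liver, 4 of the 10 genes differed between genotypes past the threshold, with Chka and Etnk2 higher and Cept1 and Pisd lower in Lpin1-/-. Of all 11507 genes tested, 18.8% passed in that contrast, 5.63% higher and 13.2% lower. In refed liver only Etnk2 remained past the threshold (6.67% of all genes passed, and 2.6% were higher). Refeeding altered none of the 10 in Lpin1+/+ liver by limma (1.72% of all genes passed), with 2 at an unadjusted p under 0.05, and it altered Cept1 in Lpin1-/- liver (20.7% of all genes passed, and 17.8% rose). No member passed in the test of genotype by feeding (1.28% of all genes passed), with 2 at an unadjusted p under 0.05. The libraries of both groups did not overlap for 6 members in each genotype contrast (32.9% of all genes in fasted and 33.9% in refed liver), for 2 members with feeding in Lpin1+/+ (18.1%), and for 6 with feeding in Lpin1-/- (46.8%). The median log2 fold change of the 10 was 0.11 in fasted and 0.13 in refed liver between genotypes, against -0.14 and -0.07 over all genes. Rescaling each library by its median ratio brought the median of all genes to 0.02 and -0.02, and the higher genes from 29.9% to 47.0% of those that passed in fasted and from 39.0% to 50.1% in refed liver, and from 88.4% to 63.2% and 85.9% to 59.0% with feeding in Lpin1+/+ and Lpin1-/- liver. The calls of Chka, Etnk2, Cept1, and Pisd by genotype held after it, and Chka then passed in refed liver as well (adjusted p = 0.0466). When only the 6 fasted libraries were fitted, Etnk2 alone passed, and Chka, Cept1, and Pisd did not (adjusted p = 0.0623, 0.0778, and 0.116), with 1011 of all genes past the threshold in place of 2168.

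**Figure D1:**
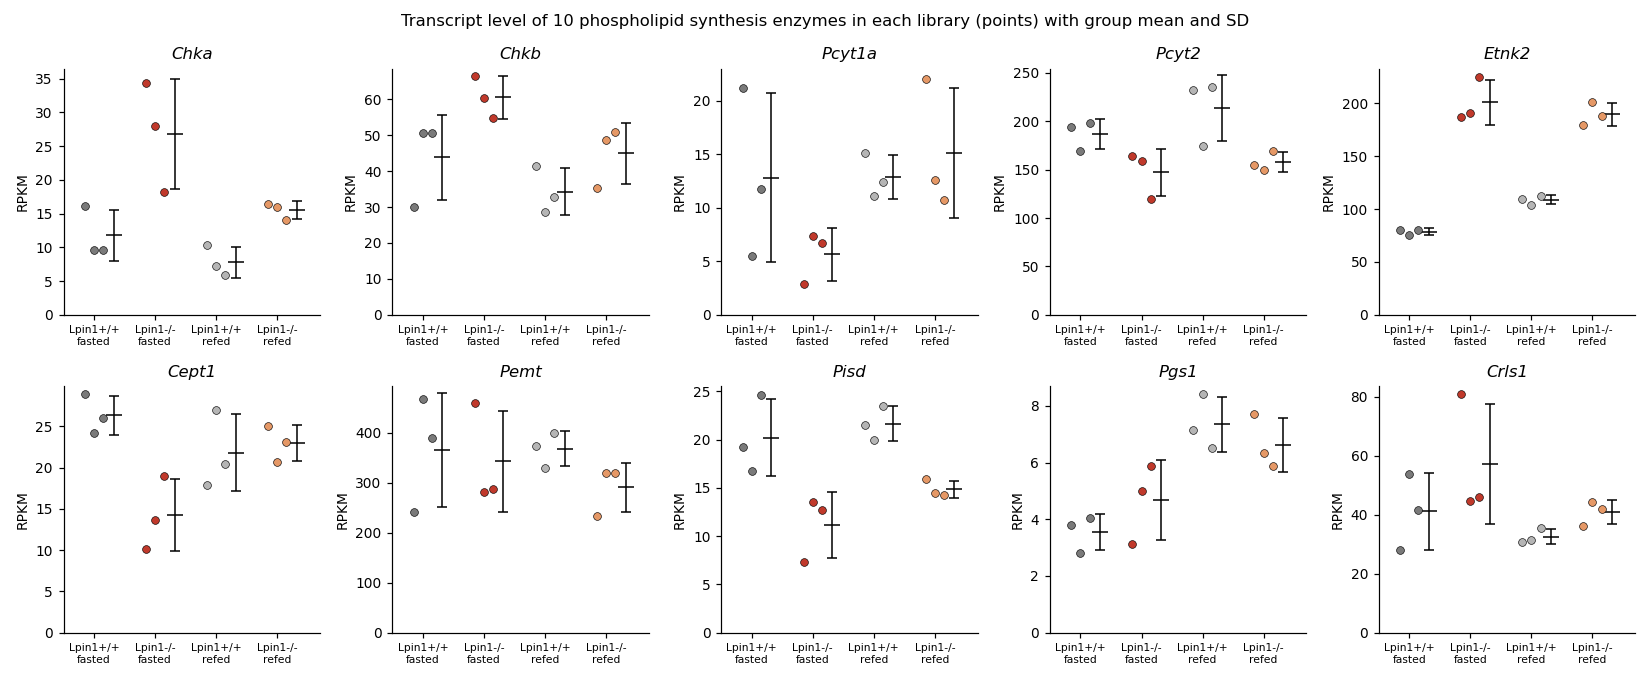
RPKM (vertical axis, from 0, each panel on its own scale) of the 10 genes in each library, by group on the horizontal axis, with the group mean and SD as a bar beside the points. The Etnk2 points of Lpin1-/- liver, 179 to 225 RPKM, lie above all Lpin1+/+ points, 75.1 to 113 RPKM.

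Of the kinases, Etnk2 and Chka were higher in fasted Lpin1-/- liver, and Etnk2 in refed Lpin1-/- liver too. Etnk2 (ENSMUSG00000070644.13, chr1:133363572-133380336) encodes an ethanolamine kinase that is abundant in liver. Its RPKM was 80.6, 75.1, and 80.3 in fasted Lpin1+/+ and 187, 191, and 225 in fasted Lpin1-/- liver. After refeeding it was 110, 104, and 113 in Lpin1+/+ and 179, 201, and 188 in Lpin1-/- liver. The genotypes were far apart in both states, and every Lpin1-/- library lay above every Lpin1+/+ library. The group means differed 2.55-fold in fasted liver (log2 fold change 1.34, SE 0.15, limma adjusted p = 0.000363) and 1.74-fold in refed liver (0.79, SE 0.15, limma adjusted p = 0.0107). The call in fasted liver stood with any 1 library left out, whereas that in refed liver was lost without replicate 2 (adjusted p = 0.0514) or replicate 3 (adjusted p = 0.0526) of refed Lpin1-/-. All 3 refed Lpin1+/+ libraries lay above the fasted ones, a log2 difference of 0.46 that did not pass the threshold (SE 0.15, limma adjusted p = 0.169).

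Chka (ENSMUSG00000024843.15, chr19:3851773-3894369) encodes choline kinase alpha, the first enzyme of the CDP-choline route. It was at 16.2, 9.60, and 9.64 RPKM in fasted Lpin1+/+ and at 34.4, 28.0, and 18.2 in fasted Lpin1-/- liver. With refeeding the values were 10.4, 7.20, and 5.86 in Lpin1+/+ and 16.4, 16.04, and 13.98 in Lpin1-/- liver. Fasted Lpin1-/- libraries were the highest of all 12, and the genotypes did not overlap in either state. The fasted means were 11.8 ± 3.77 and 26.9 ± 8.15 RPKM (SD, n = 3 each), a 2.28-fold difference (log2 fold change 1.12, SE 0.28, limma adjusted p = 0.0171). The refed difference was of similar size and missed the threshold (0.93, SE 0.28, limma adjusted p = 0.0688), which it passed with the replicate number as a block (adjusted p = 0.0308). Also short of the threshold was the difference between refed and fasted Lpin1-/- liver (-0.72, SE 0.28, limma adjusted p = 0.0874), which passed after rescaling (-1.07, adjusted p = 0.0195) and with the same block (adjusted p = 0.0338). Without replicate 3 of fasted Lpin1+/+ or replicate 1 or 2 of fasted Lpin1-/- the fasted call was lost (adjusted p = 0.0764, 0.0638, and 0.0560).

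Chkb (ENSMUSG00000022617.15, chr15:89426360-89429908) encodes the second choline kinase. Its values were 30.1, 50.7, and 50.6 RPKM in fasted Lpin1+/+ and 66.6, 60.3, and 54.8 in fasted Lpin1-/- liver, and 41.6, 28.5, and 32.8 against 35.2, 48.6, and 51.0 in refed liver. The fasted groups did not overlap, but the log2 difference of 0.49 did not pass the threshold (SE 0.24, limma adjusted p = 0.174).

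The cytidyltransferases showed no change past the threshold. Pcyt1a (ENSMUSG00000005615.15, chr16:32430921-32475070) encodes CTP:phosphocholine cytidyltransferase alpha, the enzyme at which the CDP-choline route is controlled. It was at 21.3, 5.49, and 11.8 RPKM in fasted Lpin1+/+ and 2.85, 7.39, and 6.68 in fasted Lpin1-/- liver, and at 15.1, 11.1, and 12.4 against 22.1, 12.6, and 10.7 in refed liver. The fasted Lpin1+/+ libraries spread almost over the whole range. Every refed Lpin1-/- library exceeded every fasted Lpin1-/- library, with a log2 difference of 1.30 just short of the threshold (SE 0.44, limma adjusted p = 0.0553). Without replicate 1 or 2 of fasted Lpin1+/+ this difference had an adjusted p of 0.0267 or 0.0264. With only the 6 Lpin1-/- libraries fitted it was 0.0448, and with a minimum mean of 5 RPKM 0.0478. Without replicate 2 of fasted Lpin1+/+ the difference between genotypes in fasted liver passed as well (log2 fold change -1.42, adjusted p = 0.0318), against -0.96 (SE 0.44, limma adjusted p = 0.148) with all libraries.

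Pcyt2 (ENSMUSG00000025137.15, chr11:120610087-120617936) encodes the CTP:phosphoethanolamine cytidyltransferase. Its RPKM was 194, 169, and 198 in fasted Lpin1+/+ against 164, 159, and 119 in fasted Lpin1-/- liver, and 232, 174, and 235 against 155, 149, and 169 in refed liver. Lpin1-/- libraries were the lower ones without overlap in both states, yet the log2 differences of -0.35 (SE 0.19, limma adjusted p = 0.220) and -0.42 (SE 0.19, limma adjusted p = 0.207) did not pass the threshold.

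Cept1 (ENSMUSG00000040774.15, chr3:106502260-106547802) encodes the choline/ethanolamine phosphotransferase that completes both phospholipids. It was at 28.9, 24.1, and 25.97 RPKM in fasted Lpin1+/+ and at 10.2, 13.7, and 18.9 in fasted Lpin1-/- liver. In refed liver the values were 17.9, 27.0, and 20.5 in Lpin1+/+ and 25.1, 20.7, and 23.2 in Lpin1-/-. Fasted Lpin1-/- libraries were thus below all others except refed Lpin1+/+ replicate 1, and the refed groups lay in the same range. The log2 fold change between genotypes was -0.88 in fasted liver (SE 0.22, limma adjusted p = 0.0194) and 0.09 in refed liver (SE 0.22, limma adjusted p = 0.847). Refeeding in Lpin1-/- liver raised Cept1 by 0.69 on the log2 scale (SE 0.22, limma adjusted p = 0.0491), a call at the edge of the threshold. It was lost after rescaling (0.34, adjusted p = 0.287) and with the replicate block (adjusted p = 0.0748). The same held with only the 6 Lpin1-/- libraries (adjusted p = 0.0787) and without the filter on mean RPKM (adjusted p = 0.0798). Of the 12 fits without 1 library, 9 lost it (adjusted p up to 0.173), all but those without replicate 1 of fasted Lpin1+/+, replicate 3 of fasted Lpin1-/-, or replicate 2 of refed Lpin1+/+. The interaction of 0.97 was not past the threshold (SE 0.32, limma adjusted p = 0.149). The fasted call was lost without replicate 3 of fasted Lpin1+/+ or replicate 1 or 2 of fasted Lpin1-/- (adjusted p = 0.0645, 0.0656, and 0.0554).

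**Figure D2:**
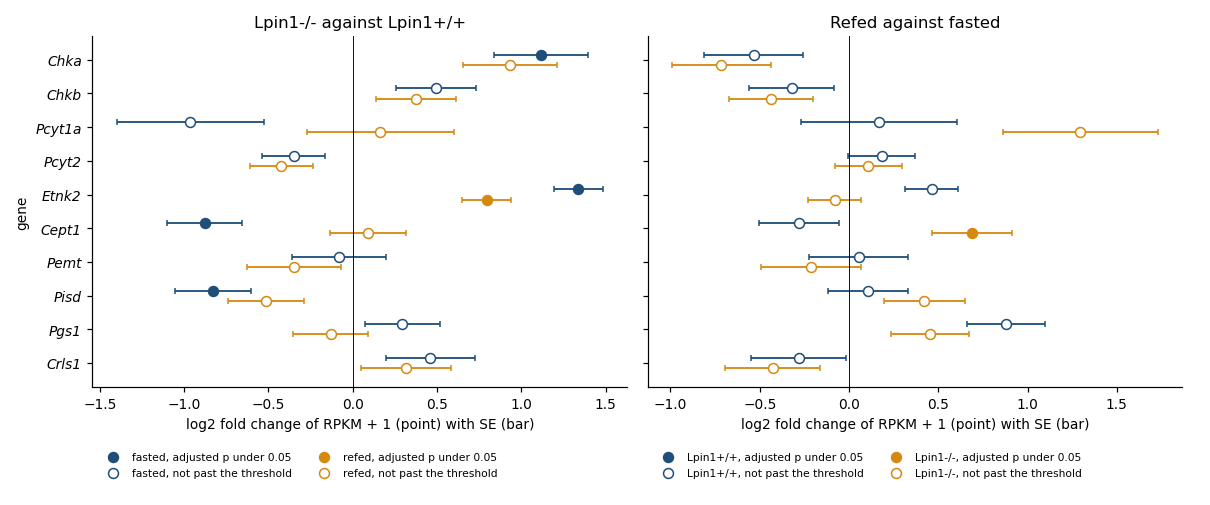
Log2 fold changes of RPKM + 1 (horizontal axis) of each gene (vertical axis) with their SE, for Lpin1-/- against Lpin1+/+ liver in each feeding state on the left and for refed against fasted liver in each genotype on the right. Filled points passed an adjusted p of 0.05, namely Chka, Etnk2, Cept1, and Pisd by genotype in fasted liver, Etnk2 by genotype in refed liver, and Cept1 by feeding in Lpin1-/- liver.

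Pemt (ENSMUSG00000000301.16, chr11:59970614-60046489) encodes the methyltransferase that turns phosphatidylethanolamine into phosphatidylcholine in hepatocytes, and it was the most abundant of the 10 transcripts. After a fast its RPKM was 242, 467, and 389 in Lpin1+/+ and 460, 282, and 288 in Lpin1-/- liver, and after refeeding it was 373, 331, and 401 against 234, 320, and 319. The fasted groups overlapped across most of their range (log2 fold change -0.08, SE 0.28, limma adjusted p = 0.869), and in refed liver the groups did not overlap but the difference of -0.35 missed the threshold (SE 0.28, limma adjusted p = 0.497).

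Pisd (ENSMUSG00000023452.19, chr5:32736301-32785646) encodes phosphatidylserine decarboxylase of the inner mitochondrial membrane. It was at 19.2, 16.8, and 24.6 RPKM in fasted Lpin1+/+ and at 7.28, 13.5, and 12.7 in fasted Lpin1-/- liver. Refed values were 21.5, 19.9, and 23.5 in Lpin1+/+ and 15.9, 14.4, and 14.3 in Lpin1-/- liver. Every Lpin1-/- library was below every Lpin1+/+ library, in fasted and refed liver alike. The fasted log2 difference of -0.83 passed the threshold (SE 0.22, limma adjusted p = 0.0257) and the refed difference of -0.51 did not (SE 0.22, limma adjusted p = 0.204). The fasted call was lost without replicate 3 of fasted Lpin1+/+ (adjusted p = 0.113) or replicate 1 of fasted Lpin1-/- (adjusted p = 0.0721). GENCODE M21 places Gm20671 over 48417 bases of Pisd on the same strand, and its RPKM was 0.849 to 0.913 of that of Pisd in every library. How reads shared by the 2 annotations were counted is not given in the sources used here.

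Pgs1 and Crls1 belong to the cardiolipin branch. Pgs1 (ENSMUSG00000017715.11, chr11:117986292-118024011), which encodes phosphatidylglycerophosphate synthase, was the lowest of the 10 transcripts, at 3.81, 2.81, and 4.03 RPKM in fasted Lpin1+/+ and 3.13, 4.99, and 5.89 in fasted Lpin1-/- liver. After refeeding it was at 7.14, 8.40, and 6.51 in Lpin1+/+ and 7.70, 6.33, and 5.86 in Lpin1-/- liver. All 3 refed Lpin1+/+ libraries lay above the fasted ones, a 2.07-fold difference of means that missed the threshold (log2 fold change 0.88, SE 0.22, limma adjusted p = 0.0811). Without replicate 1 of fasted Lpin1-/- this difference had an adjusted p of 0.0392.

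Crls1 (ENSMUSG00000027357.16, chr2:132846666-132866785) encodes cardiolipin synthase. Its RPKM was 28.0, 53.9, and 41.5 in fasted Lpin1+/+ and 80.9, 44.7, and 46.2 in fasted Lpin1-/- liver, and 30.9, 31.5, and 35.4 against 36.3, 44.4, and 42.04 in refed liver. The refed groups did not overlap, and the log2 differences between genotypes of 0.46 in fasted (SE 0.27, limma adjusted p = 0.254) and 0.32 in refed liver (SE 0.27, limma adjusted p = 0.517) did not pass the threshold.

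Each member that passed in a contrast was compared with all other tested genes by the correlation of log2(RPKM + 1) over the 12 libraries, which share the groups and thus their differences. The most alike to Chka were Cerkl, Ahcy, and Lrig2 (Pearson's r = 0.942, 0.940, and 0.931). For Etnk2 they were Ifrd1, Ube2j2, and Gde1 (0.960, 0.956, and 0.956), for Cept1 Mettl15, Rad51d, and Zscan21 (0.930, 0.907, and 0.903), and for Pisd the overlapping Gm20671 (0.997), Nr2f2, and Map2k2 (0.977 and 0.963).

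Of a list of 26 other genes of phospholipid metabolism, 21 were tested, and most passed in no contrast. In fasted liver 4 of the 21 were lower in Lpin1-/- and none was higher, beside 13.2% and 5.63% of all genes. The largest differences were those of Lpgat1, an acyltransferase for lysophosphatidylglycerol (log2 fold change -1.92, SE 0.34, limma adjusted p = 0.00333), and Selenoi, the ethanolamine phosphotransferase (-1.42, SE 0.28, limma adjusted p = 0.00580, under its older symbol Ept1). Ptdss2, a phosphatidylserine synthase, was the only gene of the list to pass in refed liver (0.95, SE 0.20, limma adjusted p = 0.0195). Refeeding raised 5 of the 21 in Lpin1-/- liver, where 17.8% of all genes rose, with the largest changes in Selenoi (1.68, SE 0.28, limma adjusted p = 0.00265) and Etnk1, another ethanolamine kinase (1.64, SE 0.37, limma adjusted p = 0.0103). By limma 0 of the 21 passed with refeeding in Lpin1+/+ liver (1 at an unadjusted p under 0.05) and 0 in the interaction (7 at an unadjusted p under 0.05). The median log2 fold change of the 21 was -0.33 between genotypes in fasted liver and 0.31 with refeeding in Lpin1-/- liver, against -0.14 and 0.25 over all genes. After rescaling, 3 were lower by genotype in fasted liver and 3 rose with refeeding in Lpin1-/- liver, Sgms2 passed as lower in refed Lpin1-/- liver, and Selenoi passed in the interaction (1.64, adjusted p = 0.0209).

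Exon use was tested on the log2 ratio of inclusion to skipping counts, each divided by the effective length of its form, where the count of both forms together was 10 or more in each library of the contrast. Inclusion is given below as a percent of both forms, from length-normalized counts, and inclusion counts take in reads that lie inside the exon. Libraries are given in the order in which the tables list them, which cannot be matched to the replicate numbers of the expression matrix. Many of these genes were reported by the study for altered splicing in the same libraries, so their counts of events are not independent evidence. In fasted liver 192 events of the 10 genes were tested, and 34 differed between genotypes, 11 with more and 23 with less inclusion in Lpin1-/-. Of all 69644 events tested 11.3% passed, 3.52% with more and 7.81% with less inclusion. The 34 events stand for 33 exons and 12 skipping junctions, and they fell in 7 genes. Pcyt1a (2 events tested), Cept1 (18), and Pemt (33) had none. The median log2 difference was -0.99 over the tested events of these genes and -0.58 over all events.

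Refed liver had 5 events past the threshold of 178 tested, all with less inclusion in Lpin1-/- liver and all in Pcyt2 on 1 skipping junction. Of all 65231 events 0.97% passed, and 0.819% passed with less inclusion. Feeding could be compared in 79 member events present in both tables. In Lpin1+/+ liver 0 passed by limma (0% of all 28447 events passed, with 3 member events and 1459 of all events at an unadjusted p under 0.05). In Lpin1-/- liver 8 passed, 4 in each direction, 5 of them in Chka, 2 in Pgs1, and 1 in Pisd (7.8% of all events, 5.31% with more and 2.5% with less inclusion after refeeding). The interaction of genotype and feeding passed for 2 events, 1 in Chka and 1 in Pisd (0.777% of all events).

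Chka held 9 of the 11 events with more inclusion in fasted Lpin1-/- liver. The 60-nt exon was counted 8, 14, and 8 times as included and 110, 27, and 54 times as skipped in fasted Lpin1+/+ liver, against 166, 181, and 200 included and 37, 24, and 37 skipped in fasted Lpin1-/- liver. In refed liver inclusion was counted 3, 6, and 4 times and skipping 22, 28, and 21 times in Lpin1+/+, against 20, 9, and 21 and 144, 103, and 68 in Lpin1-/-. The exon was thus the main form in fasted Lpin1-/- liver and a minor form in the other 3 groups. Mean inclusion was 10.9% ± 9.46 in Lpin1+/+ and 74.9% ± 4.83 in Lpin1-/- liver after a fast, and 8.72% ± 1.78 and 8.47% ± 5.02 after refeeding (SD, n = 3 each). The difference between genotypes was 4.92 on the log2 scale in fasted liver (SE 0.76, limma adjusted p = 0.00191) and -0.29 in refed liver (SE 0.60, limma adjusted p = 0.871). Refeeding in Lpin1-/- liver changed the ratio by -5.13 (SE 0.67, limma adjusted p = 0.000845), and the interaction was -5.21 (SE 0.94, limma adjusted p = 0.0259). Both calls between pairs of groups stood with any 1 library left out, whereas the interaction was lost in 8 of the 12 such fits (adjusted p up to 0.0793). It held without the second library listed for fasted Lpin1+/+, the last for fasted Lpin1-/-, or the first or last for refed Lpin1-/-. Against the longer skipping junction to the 114-nt exon, inclusion of the 60-nt exon in fasted liver was 6.39% ± 1.77 in Lpin1+/+ and 83.2% ± 8.86 in Lpin1-/- (log2 difference 6.19, SE 0.67, limma adjusted p = 0.000726, n = 3 each).

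Reads that joined the 60-nt exon directly to the 54-nt exon numbered 0, 5, and 1 in fasted Lpin1+/+ and 86, 92, and 85 in fasted Lpin1-/- liver. They numbered 0, 0, and 2 in refed Lpin1+/+ and 5, 3, and 4 in refed Lpin1-/- liver. These are the skipping counts of a 105-nt exon between both, at chr19:3875367-3875471, which overlaps an annotated exon without matching it. That exon's share fell in fasted Lpin1-/- liver (log2 difference -5.47, SE 0.82, limma adjusted p = 0.00158) while its inclusion counts stayed close, at 15 to 24 in fasted Lpin1+/+ and 22 to 28 in fasted Lpin1-/- libraries. A junction from the 60-nt exon straight to the 114-nt exon was counted 4 times in 1 fasted Lpin1-/- library and 0 times in the other 5 fasted libraries.

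The 54-nt exon separates long and short isoforms of choline kinase alpha, and GENCODE M21 has it in 6 transcripts and leaves it out of 3. It was included 215, 67, and 97 times and skipped 85, 53, and 57 times in fasted Lpin1+/+, against 145, 197, and 181 included and 7, 5, and 23 skipped in fasted Lpin1-/- liver. Refed counts were 63, 71, and 39 included and 70, 40, and 31 skipped in Lpin1+/+, against 277, 209, and 163 included and 63, 104, and 49 skipped in Lpin1-/-. Inclusion was higher in Lpin1-/- liver in both states, more so in fasted liver. Its means were 49.5% ± 8.61 and 89.7% ± 7.39 in fasted liver (log2 difference 3.32, SE 0.73, limma adjusted p = 0.0112) and 41.5% ± 8.17 and 62.9% ± 9.26 in refed liver (1.29, SE 0.55, limma adjusted p = 0.325), with 3 libraries in each group. With refeeding in Lpin1-/- liver the log2 ratio changed by -2.51 (SE 0.60, limma adjusted p = 0.0198), and the interaction of -2.03 did not pass (SE 0.85, limma adjusted p = 0.304). The fasted call was lost without the first or second library listed for Lpin1-/- or the second or last for Lpin1+/+ (adjusted p 0.0554 to 0.0680), and the call with refeeding in 4 of 12 fits, without the first or second library of fasted or the second or last of refed Lpin1-/- (adjusted p up to 0.0878). Inclusion counts of the 54-nt exon take in reads of transcripts that also hold the 60-nt exon.

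**Figure D3:**
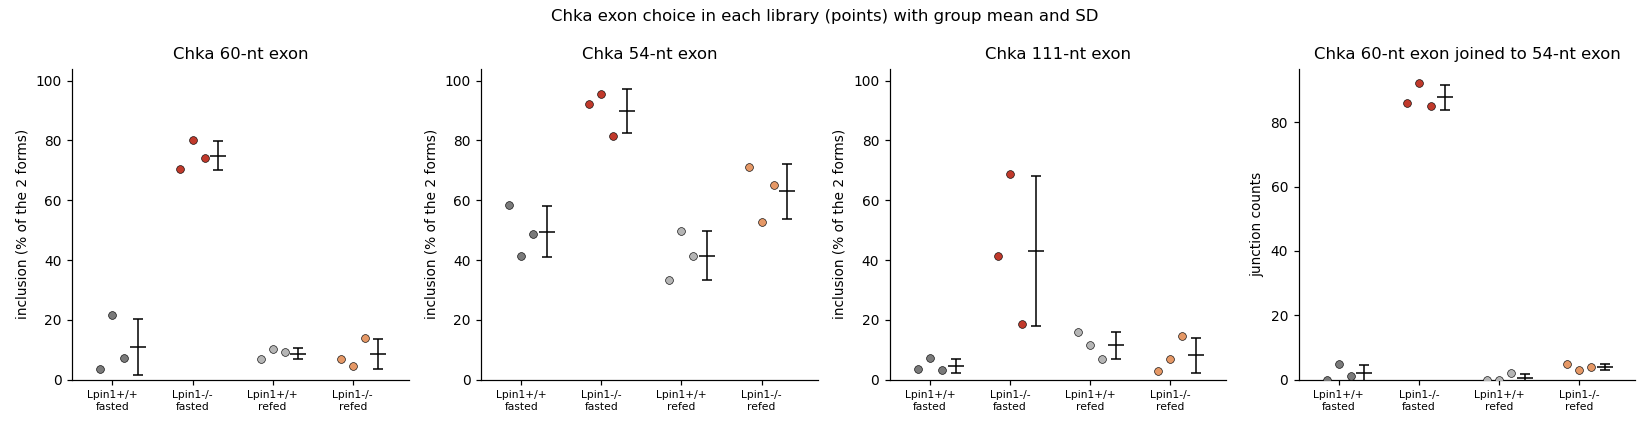
Inclusion (vertical axis, percent of both forms) of the 60-nt, 54-nt, and 111-nt exons of Chka in each library by group, with group means and SD as bars beside the points, and on the right the counts of reads joining the 60-nt to the 54-nt exon. Fasted Lpin1-/- libraries lie at 70.4% to 80.0% for the 60-nt exon and every other library at 21.6% or less.

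Further along Chka, an exon annotated at 111 nt (chr19:3882010-3882120) and a form of it 12 bases longer were included at 4.66% ± 2.29 and 5.22% ± 2.22 in fasted Lpin1+/+ and at 43.0% ± 25.0 and 44.8% ± 25.96 in fasted Lpin1-/- liver (SD, n = 3 each). The 111-nt form was counted 8, 11, and 5 times against 13, 29, and 14 times, while its skipping junction, the one that also skips the 54-nt exon, fell from 85, 53, and 57 to 7, 5, and 23 counts. The share therefore differed mostly through the skipped form (log2 difference 3.84, SE 0.82, limma adjusted p = 0.00995). In refed Lpin1-/- liver its inclusion was 8.10% ± 5.93 (n = 3), lower than in fasted Lpin1-/- liver (log2 difference -3.20, SE 0.77, limma adjusted p = 0.0210). Neither call was kept without the first or the second library listed for fasted Lpin1-/-. The first was also lost without the first or last of fasted Lpin1+/+ (adjusted p up to 0.0668) and the second without the first or second of refed Lpin1-/- (up to 0.0914).

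The coding 114-nt exon was never skipped in the tested junction in fasted Lpin1+/+ liver, with 0 of 3 libraries showing a read against 551, 292, and 279 inclusion counts, which allows a skipped share of up to 2.80% in a library. In fasted Lpin1-/- liver the junction was counted 77, 27, and 11 times, and mean inclusion was 84.8% ± 12.9 (SD, n = 3; log2 difference -5.26, SE 0.85, limma adjusted p = 0.00229). The counts were uneven among the 3 libraries, but each showed the junction, and the call stood with any 1 library left out (adjusted p up to 0.0291). GENCODE M21 has no Chka transcript that skips this exon.

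Between the 114-nt exon and the next, an unannotated exon with 3 different starts (192, 117, and 113 nt, all ending at base 3885749 of chromosome 19) appeared in fasted Lpin1-/- liver. The 117-nt form was counted 117, 91, and 29 times there and 1, 0, and 0 times in fasted Lpin1+/+ liver. Mean inclusion of the 3 forms was 0.16% or less in Lpin1+/+ and 10.8% to 14.5% in Lpin1-/- liver, and each passed the threshold (log2 differences of 6.18 to 6.39, limma adjusted p 0.000785 to 0.00111). An exon of 115 nt at chr19:3890275-3890389, which overlaps an annotated exon, rose from 0.22% ± 0.20 to 2.65% ± 1.03 inclusion (SD, n = 3 each; log2 difference 3.42, SE 0.81, limma adjusted p = 0.0171), a call kept only without the second library listed for Lpin1+/+ or the last for Lpin1-/-. These exons were in the table of fasted liver only.

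In Chkb, 7 events passed in fasted liver, all with less inclusion in Lpin1-/-. They are variants of a single exon position that share 1 skipping junction, so they count as 1 observation. The annotated coding form is the 134-nt exon, which no annotated transcript skips. A variant of 168 nt also matches an annotated exon, in a transcript of the retained intron class. Skipping was counted 1, 8, and 12 times in fasted Lpin1+/+ and 106, 112, and 63 times in fasted Lpin1-/- liver, beside 862 to 1458 inclusion counts. Refed liver had 9, 3, and 10 against 19, 24, and 44 skipping counts. Skipping was thus most frequent in fasted Lpin1-/- liver, with refed Lpin1-/- libraries between it and Lpin1+/+. Mean inclusion was 98.5% ± 1.05 and 78.6% ± 7.31 in fasted liver (SD, n = 3 each; log2 difference -4.30, SE 0.79, limma adjusted p = 0.00462) and 98.0% ± 0.86 and 94.1% ± 2.22 in refed liver (SD, n = 3 each; -1.59, SE 0.63, limma adjusted p = 0.285). The fasted difference passed with any 1 library left out (adjusted p 0.0107 to 0.0437). The interaction of 2.71 did not pass (SE 1.00, limma adjusted p = 0.239). Another annotated gene, Gm44502, covers most of Chkb on the same strand, and 2 events under the symbol Chkb lay outside the gene, neither of them past the threshold.

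Pcyt2 was the only gene with events past the threshold in both feeding states. Of its events, 10 passed in fasted and 5 in refed liver, all on the junction that skips the coding 162-nt exon. That junction was counted 2, 3, and 7 times in fasted Lpin1+/+ and 143, 98, and 32 times in fasted Lpin1-/- liver, and 4, 0, and 2 against 75, 51, and 35 times in refed liver. All 6 Lpin1-/- libraries stood above all 6 Lpin1+/+ libraries, while the exon remained the main form everywhere. Mean inclusion was 99.8% ± 0.11 and 93.3% ± 4.40 in fasted liver (SD, n = 3 each) and 99.9% ± 0.08 and 97.4% ± 0.82 in refed liver (SD, n = 3 each). The log2 differences were -4.99 (SE 0.85, limma adjusted p = 0.00309) and -5.21 (SE 0.84, limma adjusted p = 0.0242), and the interaction was -0.22 (SE 1.23, limma adjusted p = 0.964). Leaving out any 1 library kept the fasted call (adjusted p 0.00504 to 0.0335) and lost the refed one (0.0726 to 0.124). In these smaller refed fits 0 to 15 of all events passed, in place of 633.

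A second exon of Pcyt2, of 54 nt at chr11:120613030-120613083, distinguishes its long and short isoforms and had the most counts of the rarer form. Skipping was counted 93, 61, and 71 times in fasted Lpin1+/+ against 42, 63, and 75 times in fasted Lpin1-/- liver, and 225, 124, and 180 against 134, 164, and 71 times in refed liver. The genotypes overlapped in both states. Mean inclusion in refed liver was 90.5% ± 2.80 and 91.4% ± 3.58 (SD, n = 3 each; log2 difference 0.22, SE 0.59, limma adjusted p = 0.905).

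Etnk2 had the largest gain in transcript level by genotype in fasted liver, and no event on its annotated coding exons passed the threshold. Its 84-nt coding exon was skipped 65, 27, and 27 times in fasted Lpin1+/+ and 317, 246, and 209 times in fasted Lpin1-/- liver. In refed liver the counts were 22, 32, and 54 against 183, 107, and 115. Skipping counts did not overlap, but the gene was also more abundant, and inclusion differed less, at 95.5% ± 2.56 and 88.6% ± 3.54 in fasted (SD, n = 3 each; log2 difference -1.54, SE 0.71, limma adjusted p = 0.190) and 97.3% ± 1.02 and 94.4% ± 1.86 in refed liver (SD, n = 3 each; -1.08, SE 0.60, limma adjusted p = 0.463). The 2 events that passed in fasted liver were unannotated exons between the same pair of exons, of 68 nt (0, 1, and 0 against 21, 31, and 56 inclusion counts; log2 difference 4.29, limma adjusted p = 0.00554) and 117 nt (6, 4, and 2 against 35, 66, and 80; 2.52, limma adjusted p = 0.0451). Both stayed under 1% mean inclusion, and the second passed in none of the 6 fits without 1 library.

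**Figure D4:**
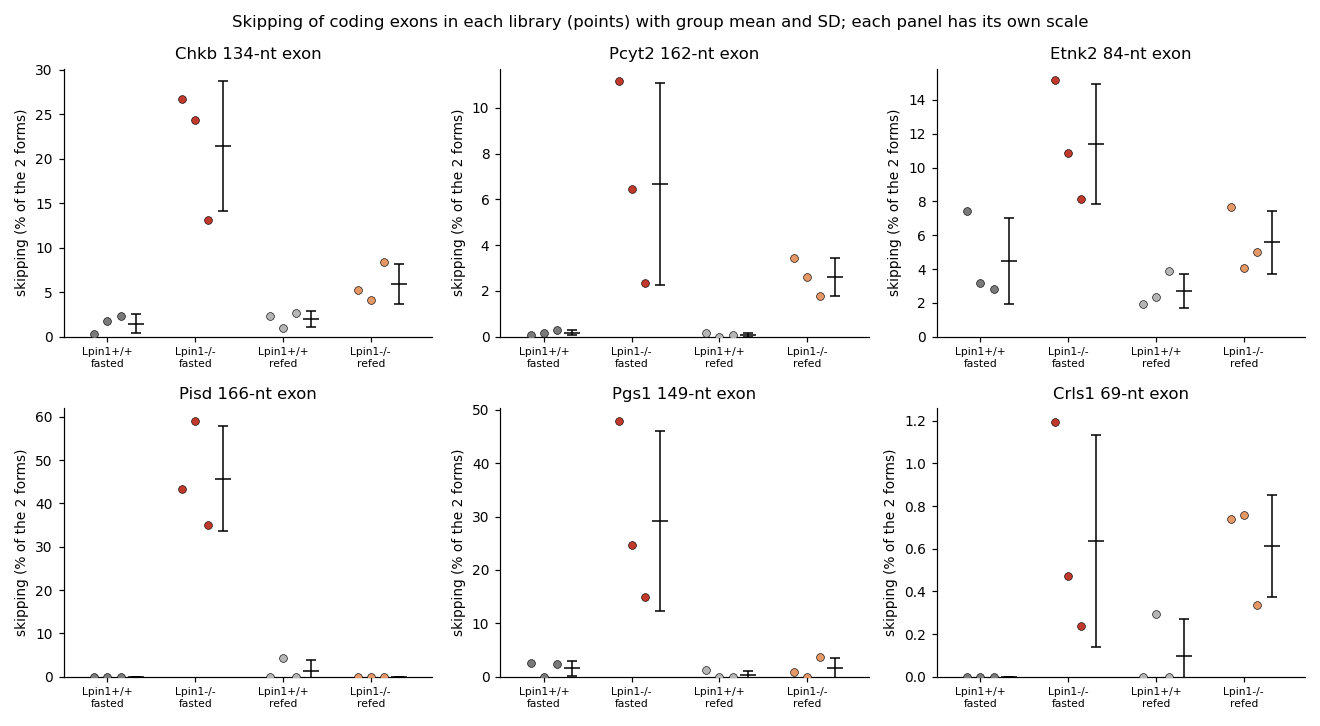
Skipping (vertical axis, percent of both forms, each panel on its own scale from 0) of 1 coding exon in each of 6 genes, in each library by group, with group means and SD as bars beside the points, cut at 0. Fasted Lpin1-/- libraries reach 26.8% in Chkb, 11.2% in Pcyt2, 15.2% in Etnk2, 58.9% in Pisd, 47.9% in Pgs1, and 1.19% in Crls1.

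In Pisd the 166-nt coding exon, present in 6 annotated transcripts and left out of 5, was included 65, 20, and 42 times and skipped 0, 0, and 0 times in fasted Lpin1+/+ liver, against 27, 12, and 32 included and 6, 5, and 5 skipped in fasted Lpin1-/- liver. Refed skipping counts were 0, 2, and 0 in Lpin1+/+ and 0, 0, and 0 in Lpin1-/- liver. Skipping was seen in all 3 fasted Lpin1-/- libraries and in 1 of the other 9. Mean inclusion in fasted Lpin1-/- liver was 54.3% ± 12.2 (SD, n = 3). The log2 difference was -4.32 between genotypes in fasted liver (SE 0.71, limma adjusted p = 0.00265) and 4.65 with refeeding in Lpin1-/- liver (SE 0.61, limma adjusted p = 0.000853). The interaction was 4.56 (SE 0.86, limma adjusted p = 0.0289) and was lost in 9 of the 12 fits without 1 library (adjusted p up to 0.0830). It held without the second library listed for fasted Lpin1+/+, the last for fasted Lpin1-/-, or the first for refed Lpin1-/-. These are low counts, and 0 skipping reads allow a skipped share of up to 34.0% in a fasted Lpin1+/+ library and 21.4% in a refed Lpin1-/- library.

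In Pgs1 the 149-nt coding exon was skipped 1, 0, and 1 times in fasted Lpin1+/+ and 23, 15, and 9 times in fasted Lpin1-/- liver, beside 89 to 136 and 80 to 163 inclusion counts. Refed liver had 1, 0, and 0 against 1, 0, and 3 skipping counts. The skipped form was counted 9 or more times in each fasted Lpin1-/- library and 3 times or fewer in the others. Mean inclusion was 98.4% ± 1.40 and 70.8% ± 16.9 in fasted liver (SD, n = 3 each; log2 difference -3.74, SE 0.76, limma adjusted p = 0.00774) and 99.6% ± 0.68 and 98.4% ± 1.96 in refed liver (SD, n = 3 each; -1.09, SE 0.93, limma adjusted p = 0.648). Refeeding in Lpin1-/- liver changed the log2 ratio by 4.71 (SE 0.88, limma adjusted p = 0.00534), and the interaction of 2.65 did not pass (SE 1.24, limma adjusted p = 0.368). A 76-nt form of the same exon, annotated in 2 transcripts of the decay class with a stop codon that begins at base 39, shares the junction. It passed in the same contrasts (limma adjusted p = 0.0145 and 0.00977), in fasted liver only while the second and last Lpin1+/+ and the first and second Lpin1-/- libraries were all kept. Its call with refeeding was lost without the first library listed for fasted Lpin1-/- (adjusted p = 0.0513).

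In Crls1 the 69-nt coding exon at chr2:132862335-132862403 was skipped 0, 0, and 0 times in fasted Lpin1+/+ and 17, 4, and 2 times in fasted Lpin1-/- liver, of at least 943 inclusion counts in each. Refed counts were 0, 2, and 0 against 6, 7, and 3. The skipped form reached 1.19% at most, and its absence in fasted Lpin1+/+ allows up to 0.637% in a library. The fasted difference of -3.04 passed the threshold (SE 0.85, limma adjusted p = 0.0356), and it held only without the last library listed for Lpin1-/- among the 6 fits without 1 library (adjusted p up to 0.128).

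Exon events of Pcyt1a, Cept1, and Pemt did not pass in any contrast. For Cept1 the event with the most counts of the rarer form was an 85-nt exon (chr3:106520009-106520093), included at 78.4% ± 15.2 in refed Lpin1+/+ and 80.1% ± 4.58 in refed Lpin1-/- liver (SD, n = 3 each; log2 difference -0.05, SE 0.71, limma adjusted p = 0.986). For Pemt it was an unannotated 51-nt exon, at 0.40% ± 0.12 and 0.60% ± 0.57 inclusion in fasted liver (SD, n = 3 each; log2 difference 0.22, SE 0.82, limma adjusted p = 0.892). For Pcyt1a it was an unannotated 188-nt exon, counted 0 to 5 times as included and 3 to 13 times as skipped in a refed library, too few for the test.

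Of the 193 target exons of the 332 events, 61 matched an exon of GENCODE M21 exactly, 89 overlapped one with another border, and 43 lay outside annotated exons. The 12 skipping junctions of the 34 events that passed in fasted liver were shared out as 6 in Chka and 1 in each of Chkb, Pcyt2, Etnk2, Pisd, Pgs1, and Crls1. Where a coding exon of the annotation was concerned outside Chka, the difference in fasted liver was toward skipping in Lpin1-/- in each of Chkb, Pcyt2, Pisd, Pgs1, and Crls1. By their counts these exons were at or near full inclusion in fasted Lpin1+/+ liver, so a difference could go almost only toward skipping. Their shared direction is therefore no result about these genes. Of all events tested 7.81% passed in that direction, which is 5439 of the 7892 that passed.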

How the data were processed

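The authors aligned paired reads of 69 bases with HISAT2 (2.0.5 in the submitters' processing notes) to GRCm38 with Ensembl release 84, counted them per gene with htseq-count (HTSeq 0.6.0), and deposited RPKM for each library. They deposited inclusion and skipping counts of skipped exon events from rMATS, with replicates of a group listed together, and their own p-values, FDR, and inclusion differences, which were not used. Groups were those of the labels. From the files, log2(RPKM + 1) of genes averaging 0.5 RPKM or more was fitted with limma 3.58.1 (trend, R 4.3.3) over the 4 groups. Event log2 ratios, with 0.5 added to each count, were fitted over 6 libraries for genotype and over 12 for feeding, which used the 34416 events with identical coordinates in both tables. P-values were adjusted over all genes or events (Benjamini-Hochberg, threshold 0.05). They rest on the spread between mice, 3 a group, pooled over all groups of a fit and drawn toward that of all genes or events. Replicate numbers come from the labels, which do not say what they share. Same-numbered refed libraries of both genotypes deviated together (correlations 0.162, 0.297, and 0.186), within the range of differently numbered pairs (-0.700 to 0.628). Blocked values stand beside the results they change. RPKM files give no depth, and counting limits cover counting error only. Both methods were run on simulated data, with an outcome not given here. The exon events changed in that simulation had intermediate inclusion, unlike many of the events named here. Named were all 10 members, the 2 other phospholipid genes of largest change in each direction and contrast, the 3 genes most alike each altered member, and each member event past the threshold or with the most counts of the rarer form. Members and lists were chosen with earlier results of these data known. Python 3.11.15, pandas 2.3.3, and matplotlib 3.10.9 were used.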

Additional observations from a re-analysis of the deposited data

Results flagged for a closer look

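Fasted and refed liver differed in the effect of genotype on 2 member exons, by the test of the interaction itself. For the 60-nt exon of Chka, the log2 inclusion ratio of Lpin1-/- against Lpin1+/+ was lower by 5.21 in refed than in fasted liver (interaction -5.21, SE 0.94, limma adjusted p = 0.0259). Inclusion in the 3 fasted Lpin1-/- libraries was 70.4%, 80.0%, and 74.2%, and in the other 9 libraries it was 3.72% to 21.6%. For the 166-nt exon of Pisd the interaction was 4.56 (SE 0.86, limma adjusted p = 0.0289), and skipping was counted 6, 5, and 5 times in fasted Lpin1-/- liver and 2 times in the other 9 libraries together. With 1 library left out the interaction was lost in 8 of 12 fits for Chka and in 9 of 12 for Pisd, and that of Pisd was also lost with precision weights (adjusted p = 0.0657). At a minimum of 50 counts, which neither exon reached in every library, 0 member interactions passed. Of all 28447 events tested, 0.777% passed the same test. Groups of 3 libraries are too small for a test of single outlying libraries.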

How the results depend on the processing

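Among the 6 settings that kept all libraries of a contrast, 5 moved a count of member genes past the threshold by more than 1.5 times, and a pseudocount of 0.1 did not. In fasted liver 4 genes differed by genotype, and 1 (Etnk2) did when only the 6 libraries compared were fitted. In refed liver 1 gene became 2 after rescaling by the median ratio, with the replicate block, and with only the 6 libraries, each time through Chka (adjusted p 0.0308 to 0.0482). With feeding in Lpin1+/+ liver 0 became 1 without a filter (Etnk2, adjusted p = 0.0431), and in Lpin1-/- liver 1 became 0 without a filter and 2 at a minimum mean of 5 RPKM (Cept1 and Pcyt1a). After rescaling and with the replicate block the single gene there was Chka in place of Cept1. With only the 6 libraries it was Pcyt1a (adjusted p = 0.0448), and Cept1 was lost (adjusted p = 0.0787). Rescaling moved the median of all genes from 0.25 to -0.03 in that contrast, and no named difference changed its direction. Same-numbered samples deviated together in the refed contrast of genotypes (correlations 0.162 to 0.297) and not in every pair of any other contrast (-0.474 to 0.251). The replicate block changed the calls of Chka in refed liver and of Chka and Cept1 with feeding in Lpin1-/- liver. It changed no other call of a member gene. The refed values lie within the range of differently numbered pairs (-0.700 to 0.628). Same-numbered fasted Lpin1+/+ and refed Lpin1-/- samples, which no contrast compares directly, had 0.743, 0.545, and 0.390. What the numbers share was not tested. With 1 library left out, genes past the threshold were 1 to 5 by genotype in fasted and 0 to 2 in refed liver, 0 to 1 and 0 to 2 with feeding in Lpin1+/+ and Lpin1-/-, and 0 to 0 for the interaction.

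For exon events, 34 by genotype in fasted and 5 in refed liver became 19 and 2 when all 12 libraries were fitted to the joined events, which leaves 79 member events. In Lpin1-/- liver 8 events with feeding became 2 at a minimum of 50 counts, and 2 with an interaction became 1 at 20 and 0 at 50 counts. Leaving out 1 library gave 26 to 34, 0 to 0, 0 to 0, 4 to 8, and 0 to 4 events in the order fasted, refed, Lpin1+/+, Lpin1-/-, interaction. Joining events by target exon and splice sites, chosen after seeing the data, gave 27, 5, 0, 8, and 2. No paired analysis was possible for events because their lists carry no replicate numbers. Of the single results still tested under a setting, 1 event call was lost under a setting other than leaving out a library (Pisd interaction, adjusted p = 0.0657 with precision weights), and 0 were reversed. An event that the filter of a setting left out was not counted as lost. A count of 0 allows a skipped share of up to 34.0% for the Pisd exon and 0.637% for the Crls1 exon in a fasted Lpin1+/+ library.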
